A study of Mus musculus with 123 samples.

Results

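Undisturbed mice in the middle of their active night were compared with undisturbed mice in the middle of their daytime rest, by messenger RNA of the cerebral cortex. The comparison holds 10 RNA libraries, 1 for each animal: 5 taken at zeitgeber time 18 (ZT18, in hours after lights on) and 5 at ZT6, of 62 animals with RNA in the series. The libraries were taken by their labelled time and condition, and all 13842 genes of the deposited table entered. Both groups were male mice of the inbred C57BL/6J strain, with no engineered allele named, kept under 12 h of light and 12 h of darkness with food always present. The study worked with mice of 11 to 12 weeks, and neither group was handled to prevent sleep. In each group 3 animals belonged to batch 1 and 2 to batch 2, as the labels call them. 4 other groups are set beside the comparison: undisturbed mice at ZT0 (8 animals), ZT3 (3) and ZT12 (5), and mice kept awake by gentle handling for the 3 h from light onset (T27, 3 animals, taken at the clock time of ZT3). Open chromatin was read by ATAC-seq in 9 of the 10 animals, 4 at ZT18 and 5 at ZT6.

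Mice are nocturnal, so that ZT6 falls into their main sleep and ZT18 into their main waking. Both sleep-wake state and clock phase differ between the groups, and the 2 cannot be told apart here, where no sleep recordings were used. The molecular clock runs in cortical cells as a loop in which CLOCK and BMAL1 (gene Arntl) switch on the Per, Cry and Nr1d genes, whose products repress them in turn. Waking cortex is known for immediate early genes, which neurons transcribe within minutes of firing, and for chaperones of the endoplasmic reticulum (ER), the compartment where secreted and membrane proteins fold. Sterol synthesis is controlled through SREBP transcription factors, which the INSIG proteins hold in the ER when sterol is plentiful.

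RNA values are log2 levels with an offset of 0.5 added before the logarithm, adjusted for batch by the authors. No source used here says whether gene length entered, so levels are compared between libraries and not between genes. A gene is called higher or lower where limma, fitted to all 62 animals with a term for batch, gave a Benjamini-Hochberg adjusted p below 0.05 over all genes. Groups are said not to overlap where every library of 1 group lay above every library of the other. Animals are listed below in a fixed order, T18N2, T18N3, T18N4, T18N7 and T18N8 at ZT18 and T6N2, T6N3, T6N4, J76N1 and J76N2 at ZT6, which has no meaning as a sequence.

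The 2 times differed in 4110 of 13842 genes (29.7%), of which 2132 were higher (15.4%) and 1978 lower (14.3%) at ZT18. The differences were mostly small: the median size among called genes was 0.21 log2 units, 207 exceeded 0.5, and 14 exceeded 1 log2 unit, 12 of them higher at ZT18. Libraries of the groups did not overlap in 2322 genes (16.8%), 1137 higher (8.21%) and 1185 lower (8.56%) at ZT18. In batch 1 alone (3 animals against 3) limma called 2547 genes, of which 2398 (94.1%) had the same sign in batch 2, against 72.0% of all genes. In batch 2 alone (2 against 2) it called 1093. A fit with animal number as a block was possible for the 6 batch 1 animals numbered 2, 3 and 4, and called 2281 genes, 1285 higher and 996 lower. The same 6 animals without the block gave 1044. The 27 named genes that lost their call in the blocked fit, given below, did not pass in that unblocked fit of 6 animals either, so fewer animals and the block cannot be told apart there.

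A ZT6 animal, T6N3, stood between the groups. On an axis set to 0 at the ZT6 mean and 1 at the ZT18 mean of the called genes, its library lay at 0.35, while the other 4 ZT6 libraries lay between -0.22 and 0.15 (the highest being J76N1) and the ZT18 libraries between 0.84 and 1.14. Without T6N3, 4349 genes were called (31.4%), and 3840 of the 4110 were among them. T6N3 was highest of the ZT6 libraries in 17 of 28 heat shock genes, 13 of 20 ER chaperone genes and 14 of 24 postsynaptic scaffold genes described below. It was also highest in 7 of 9 meningeal markers, 7 of 13 astrocyte markers and 19 of 44 oxidative phosphorylation genes. Other lists varied. T6N3 was highest in 2 of 3 choroid plexus markers, 9 of 18 effector genes and 8 of 16 regulators of the unfolded protein response. It was highest in 3 of 20 sterol enzyme genes and 0 of 12 oligodendrocyte markers. The share over all genes was not computed. What the animal did before it was killed was not tested. Without it the lists led by ER chaperones (14 of 20 higher), heat shock (18 of 28) and immediate early factors (11 of 20) had counts within 1 of those below.

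**Figure D1:**
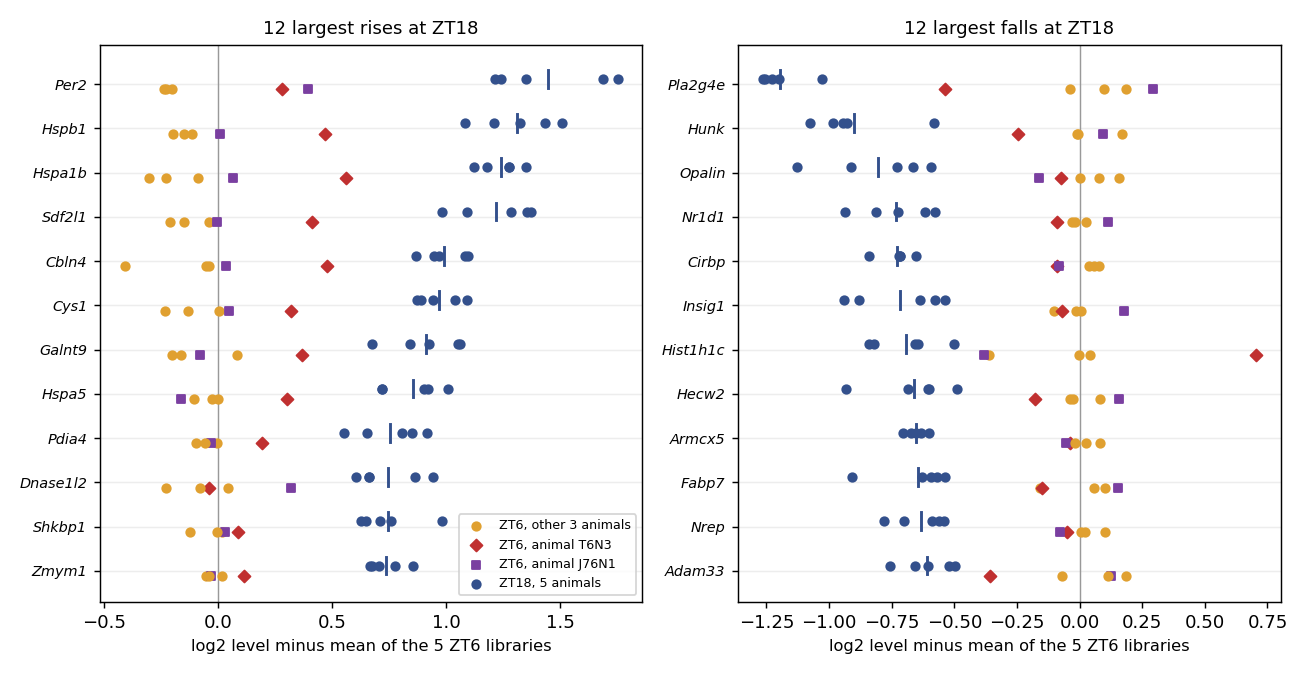
Each point is 1 library, as its log2 level minus the mean of the 5 ZT6 libraries (horizontal axis), for the 12 largest rises (left) and falls (right) at ZT18; vertical bars mark the ZT18 mean. No ZT18 library reaches into the ZT6 points of its gene, and T6N3 (red diamonds) is the ZT6 library nearest to ZT18 in 10 of the 12 rises and 6 of the 12 falls, among them Hspb1 and Hspa1b.

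The 12 genes with the largest rises, among called genes whose libraries did not overlap and whose level was above the 25th percentile began with Per2, Hspb1 and Hspa1b. Per2, a core repressor of the clock (chromosome 1, 91415977 to 91459351 on GRCm38), stood at 5.04, 5.10, 4.59, 4.70 and 4.56 at ZT18 and at 3.15, 3.63, 3.11, 3.74 and 3.12 at ZT6. All 5 night values lay at least 0.82 log2 units above the highest day value, and the difference was 1.45 (SE 0.14, 2.73-fold, adjusted p = 1.89e-10). Hspb1, a small heat shock protein gene, stood at 3.91, 4.14, 3.79, 4.21 and 4.02 at ZT18 and 2.55, 3.17, 2.50, 2.71 and 2.59 at ZT6 (difference 1.31, SE 0.14, adjusted p = 1.23e-09), with T6N3 the highest of the day libraries. Hspa1b, an inducible Hsp70 gene, stood at 3.77, 3.99, 3.83, 3.92 and 3.92 against 2.56, 3.20, 2.34, 2.71 and 2.42, a 2.36-fold difference. Its near-identical copy Hspa1a can share reads with it, so the split between them is uncertain. Sdf2l1 and Pdia4 (ER chaperone partners), Cbln4 (a secreted organizer of synapses, 0.99 log2 units), Cys1 (a protein of cilia, 0.97) and Galnt9 (an enzyme that starts O-linked glycans, 0.91) followed. The others were Hspa5, Dnase1l2 (0.75), Shkbp1 (0.74) and Zmym1 (0.73). All 12 were called higher at T27 than at ZT3, and 11 of the 12 higher at ZT0 than at ZT12, with Per2 as the exception.

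Among the 12 largest falls Pla2g4e, a cytosolic phospholipase gene, stood at 2.63, 2.66, 2.85, 2.62 and 2.68 at ZT18 and 3.98, 3.34, 4.07, 4.18 and 3.84 at ZT6. T6N3 was again the day library nearest to the night, and the difference was -1.19 (SE 0.14, adjusted p = 1.52e-08). Opalin, a myelin protein gene of oligodendrocytes, stood at 3.54, 3.01, 3.22, 3.47 and 3.40 against 4.21, 4.06, 4.14, 3.97 and 4.29 (difference -0.81, SE 0.11, adjusted p = 1.46e-07). Hunk (a kinase, -0.90), Nr1d1 (a clock repressor), Cirbp (a cold-inducible RNA-binding protein), Insig1 (the sterol sensor partner), Hist1h1c (a linker histone, -0.69) and Hecw2 (a ubiquitin ligase, -0.66) came next. The smallest of the 12 were Armcx5 (-0.65), Fabp7 (a fatty acid carrier of astrocytes, -0.65), Nrep (-0.63) and Adam33 (a metalloprotease, -0.61). Of the 12, 7 were called lower at T27 than at ZT3 as well. Fabp7 and Hist1h1c were called the other way between ZT0 and ZT12, higher at ZT0 by 0.52 and 0.60.

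**Figure D2:**
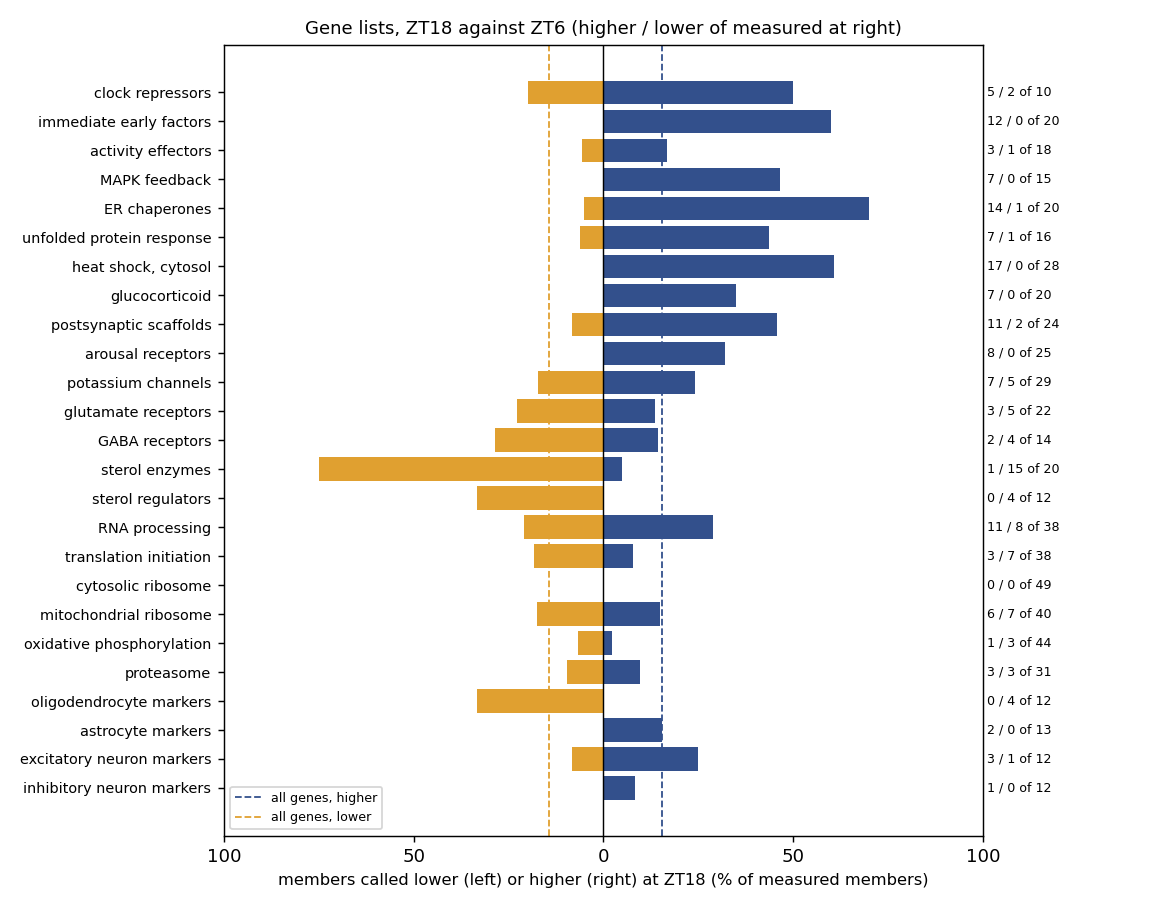
Bars give the share of measured members of each gene list called higher (right, blue) or lower (left, amber) at ZT18, in percent; dashed lines mark the shares among all genes, 15.4% and 14.3%. ER chaperone, heat shock and immediate early lists extend to the right and the sterol enzyme list to the left, while the cytosolic ribosome, oxidative phosphorylation and proteasome lists stay within the dashed lines on both sides.

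Clock genes did not share a direction. Of 10 clock repressor genes 5 were higher and 2 lower at ZT18 (median 0.23 log2 units), against 15.4% and 14.3% of all genes. Of the 8 with a RefSeq promoter 4 held the E-box CACGTG, the site of CLOCK and BMAL1, within 250 bases before a transcript start, against 9.78% of 10251 promoters. They are shown for a gene that was higher, Cry1, one whose call depended on the batch, Per1, and one that was lower, Ciart (RefSeq, GRCm38.p6, 5′ to 3′ on the gene's strand, E-box in capitals):
Cry1, chr10:85185055-85185304, minus strand: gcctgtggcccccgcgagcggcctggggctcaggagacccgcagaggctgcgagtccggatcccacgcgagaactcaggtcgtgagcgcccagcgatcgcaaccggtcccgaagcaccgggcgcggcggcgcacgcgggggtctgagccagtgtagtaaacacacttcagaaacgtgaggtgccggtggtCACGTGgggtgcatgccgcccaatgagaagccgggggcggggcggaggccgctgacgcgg
Per1, chr11:69098699-69098948, plus strand: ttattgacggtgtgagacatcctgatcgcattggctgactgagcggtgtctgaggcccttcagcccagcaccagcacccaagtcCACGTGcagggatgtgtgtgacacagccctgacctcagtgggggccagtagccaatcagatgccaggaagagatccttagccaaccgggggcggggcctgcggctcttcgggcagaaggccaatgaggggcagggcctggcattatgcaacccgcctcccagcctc
Ciart, chr3:95882229-95882478, minus strand: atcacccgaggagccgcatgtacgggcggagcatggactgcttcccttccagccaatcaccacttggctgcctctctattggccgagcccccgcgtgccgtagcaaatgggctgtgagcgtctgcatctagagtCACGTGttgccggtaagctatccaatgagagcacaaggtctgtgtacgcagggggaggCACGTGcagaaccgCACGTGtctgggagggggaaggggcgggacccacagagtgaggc
The Per1 window lies within the gene's span (69095108 to 69109965), before an internal RefSeq transcript start, and that of Ciart overlaps the end of its gene's span, at 95882257. A match is a stretch of letters and not a measured binding site. Among genes higher at ZT18, 9.03% of promoters held the E-box, and 10.1% among genes lower.

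Cry1, which encodes the repressor cryptochrome 1, stood at 4.00, 4.07, 3.85, 4.04 and 3.89 at ZT18 and 3.12, 3.46, 3.30, 3.40 and 3.02 at ZT6 (difference 0.71, SE 0.07, adjusted p = 5.37e-11), with no overlap. Per3 (0.21) and Cry2 (0.26) were higher by less. Per1 stood at 6.02, 5.64, 5.62, 5.31 and 5.17 against 5.10, 4.62, 4.81, 5.73 and 4.93, with the day library J76N1 above 4 of the 5 night libraries. Its call (difference 0.51, SE 0.18, adjusted p = 0.0305) did not hold across batches, with a difference of 0.92 in batch 1 and -0.09 in batch 2. Nr1d1, which encodes the nuclear receptor REV-ERB alpha and shares its locus with Thra on the other strand, stood at 6.33, 6.37, 6.22, 6.13 and 6.01 against 6.93, 6.86, 6.92, 7.06 and 6.97 and was lower at ZT18 by 1.66-fold (SE of the log2 difference 0.09, adjusted p = 5.69e-08). Ciart was lower by a log2 difference of -0.45 (adjusted p = 0.0266), with T6N3, at 4.69, below every other ZT6 library. Nr1d2 (0.00, SE 0.06), Bhlhe41 (-0.03, SE 0.09) and Bhlhe40 (0.28, SE 0.13) did not pass. Bhlhe40 passed in the blocked fit of 6 animals (adjusted p = 0.0293) and Ciart (adjusted p = 0.0849) did not. Calls were lost with 1 animal left out for Per1 without T18N2, T18N3, T18N4, T6N3, T6N4 or J76N2 (adjusted p = 0.0559 to 0.132), Ciart without T18N3, T18N7, T18N8, T6N2, T6N4, J76N1 or J76N2 (adjusted p = 0.0524 to 0.0992).

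The contrast of ZT0 with ZT12 sampled the other axis of the clock. There 5 of the 10 repressors were lower at ZT0 and none higher (26.0% of all genes were called in that comparison), with Ciart at -1.95, Bhlhe41 at -0.91, Nr1d1 at -0.83, Nr1d2 at -0.66 and Per3 at -0.65. Per2 (-0.04) and Cry1 (0.07) were not called there. The activator Arntl showed the same division: it was lower by -0.13 at ZT18 without passing (adjusted p = 0.0635), although its groups did not overlap, and higher by 0.80 at ZT0 than at ZT12. Of the 7 clock output genes, the transcription factor genes Hlf (0.35) and Tef (0.24) were higher at ZT18, and Dbp (-0.26, adjusted p = 0.0522) was not called. Among 8 kinase and ligase genes that act on clock proteins, Csnk1e (0.29) and Csnk1d (0.10) were higher and Csnk2a1, Usp2 and Fbxl21 lower (to -0.34). Both counts stand beside 15.4% of all genes higher and 14.3% lower at ZT18. Among these, Csnk1d (adjusted p = 0.0522) did not pass in the blocked fit of 6 animals, and leaving out 1 animal ended the calls of Csnk1d without T18N2, T18N3, T18N4, T18N8, T6N4 or J76N2 (adjusted p = 0.0524 to 0.115), Fbxl21 without T6N4 (adjusted p = 0.0549).

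**Figure D3:**
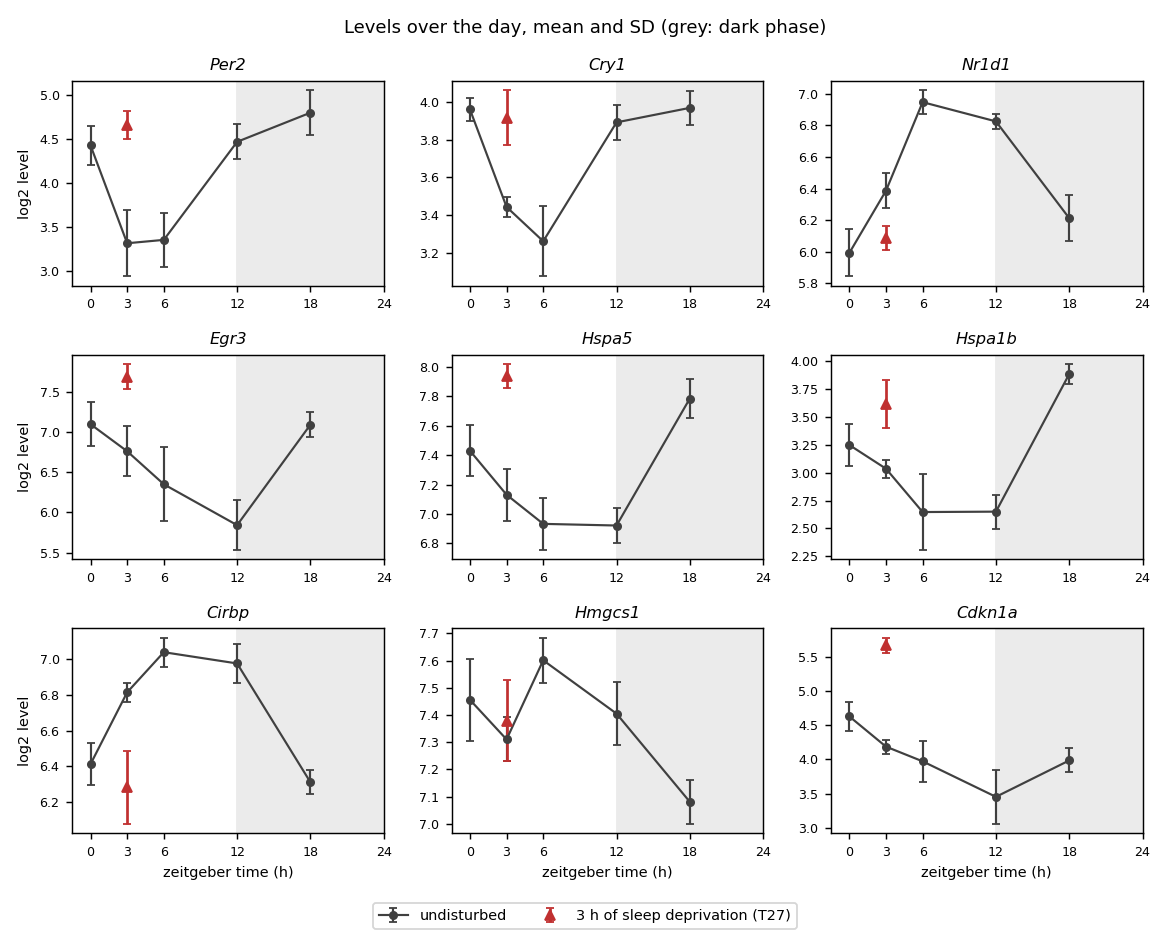
Mean log2 level with SD (vertical axis) against zeitgeber time in hours for undisturbed mice (black; 8, 3, 5, 5 and 5 animals) and for 3 h of sleep deprivation (red triangle, 3 animals), with the dark phase in grey. Per2, Hspa5 and Hspa1b are highest at ZT18 among the undisturbed times, Nr1d1 and Cirbp are highest at ZT6, and Cdkn1a is highest in the deprived mice.

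Immediate early genes were higher on average at night, but in none of them did the groups separate. Of 20 measured immediate early transcription factor genes 12 were called higher and none lower, against 15.4% and 14.3% of all genes. Their median was 0.48 log2 units, against 0.00 over all genes. In 0 of the 20 the libraries did not overlap, against 16.8% of all genes. Egr3, a factor gene of the EGR family, stood at 7.16, 7.30, 6.95, 7.12 and 6.93 at ZT18 and at 6.01, 7.13, 6.05, 6.38 and 6.17 at ZT6 (difference 0.74, SE 0.15, adjusted p = 1.68e-04). The night libraries agreed closely, and 1 day library, T6N3, lay among them while the other 4 lay below. T6N3 also reached the night range for Egr1, with day values of 6.95, 7.95, 6.35, 7.55 and 6.60 against night values of 8.48, 8.15, 8.01, 7.84 and 8.01 (difference 1.02, adjusted p = 0.0012). Fosb (0.61), Fosl2 (0.44), Egr4 (0.67) and Crem (0.24) were higher as well. Without T6N3 5 of the 20 no longer overlapped, and without J76N1 4 of the 20. J76N1 was the highest ZT6 library in 11 of the 20 and T6N3 in 8. The share of all genes without overlap was not computed with either animal left out.

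A second pattern of spread was seen in Fos and its neighbours in this list. Fos, the prototype of the class, stood at 5.39, 4.28, 4.96, 3.90 and 4.45 at ZT18 and at 3.74, 3.68, 2.48, 4.67 and 2.76 at ZT6 (difference 1.13, SE 0.45, adjusted p = 0.04997). Here J76N1 was the high day library and T6N4 and J76N2 the low ones, and the night libraries spread over 1.49 log2 units. Egr2 had the largest difference of the class, with 3.74, 2.72, 3.00, 2.12 and 2.40 against 1.23, 1.68, 0.37, 2.34 and 0.47 (difference 1.58, SE 0.42, adjusted p = 0.00355). Nr4a2 (0.92), Nr4a1 (0.75), Nr4a3 (0.61) and Ier5 (0.29) were called higher. Junb (0.47, SE 0.34), Npas4 (0.49, SE 0.26), Ier2 (0.41, SE 0.28), Klf4, Klf10, Btg2, Jun and Jund were not. The count of 12 fell to 6 without T18N2 or without J76N2 and to 7 without T6N2 or without T6N4, and was 11 without T6N3 and 12 without J76N1. In the blocked fit of 6 animals it was 7: Fosb, Fosl2, Egr4, Crem, Nr4a3 and Ier5 (adjusted p = 0.0755, 0.181, 0.179, 0.0986, 0.0522 and 0.12) did not pass and Junb did (adjusted p = 0.0212). Single genes lost their call as follows: Fos without T18N2, T18N3, T18N4, T18N8, T6N2, T6N3, T6N4 or J76N2 (adjusted p = 0.0512 to 0.172), Nr4a1 without T18N2, T18N3, T18N4, T6N2, T6N3, T6N4 or J76N2 (adjusted p = 0.05 to 0.176), Nr4a3 without T18N2, T18N3, T6N2, T6N4 or J76N2 (adjusted p = 0.0636 to 0.208), Fosl2 without T18N2, T6N2, T6N4 or J76N2 (adjusted p = 0.0578 to 0.121), Ier5 without T18N2, T6N2, T6N4 or J76N2 (adjusted p = 0.0953 to 0.137), Egr4 without T18N2 or J76N2 (adjusted p = 0.0502 to 0.0736).

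Effector genes that follow neuronal activity were divided. Of 18, 3 were called higher (Homer1, Bdnf and Vgf) and 1 lower (Nrn1, -0.22), against 15.4% and 14.3% of all genes. Homer1, a scaffold gene with a short activity-induced form, stood at 7.55, 7.68, 7.54, 7.77 and 7.67 at ZT18 and 6.63, 7.56, 6.76, 6.86 and 6.65 at ZT6 (difference 0.75, adjusted p = 8.02e-06), where T6N3 alone reached the night level. Arc, whose protein acts in synaptic plasticity, stood at 7.65, 5.56, 7.68, 4.92 and 6.50 against 5.74, 4.09, 4.51, 6.45 and 5.13. Its difference of 1.28 (SE 0.55) did not pass (adjusted p = 0.0738), and night and day libraries overlapped widely. Cdkn1a, a cell cycle inhibitor gene, had mean levels of 3.99 ± 0.18 and 3.97 ± 0.30 (SD, n = 5 each), a difference of 0.01 (SE 0.14) that did not pass. The number called higher was 7 without J76N1, 5 without T18N7 and 8 in the blocked fit of 6 animals, where Arc passed (adjusted p = 0.0145). The number called lower was 2 without J76N1 or T18N7.

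**Figure D4:**
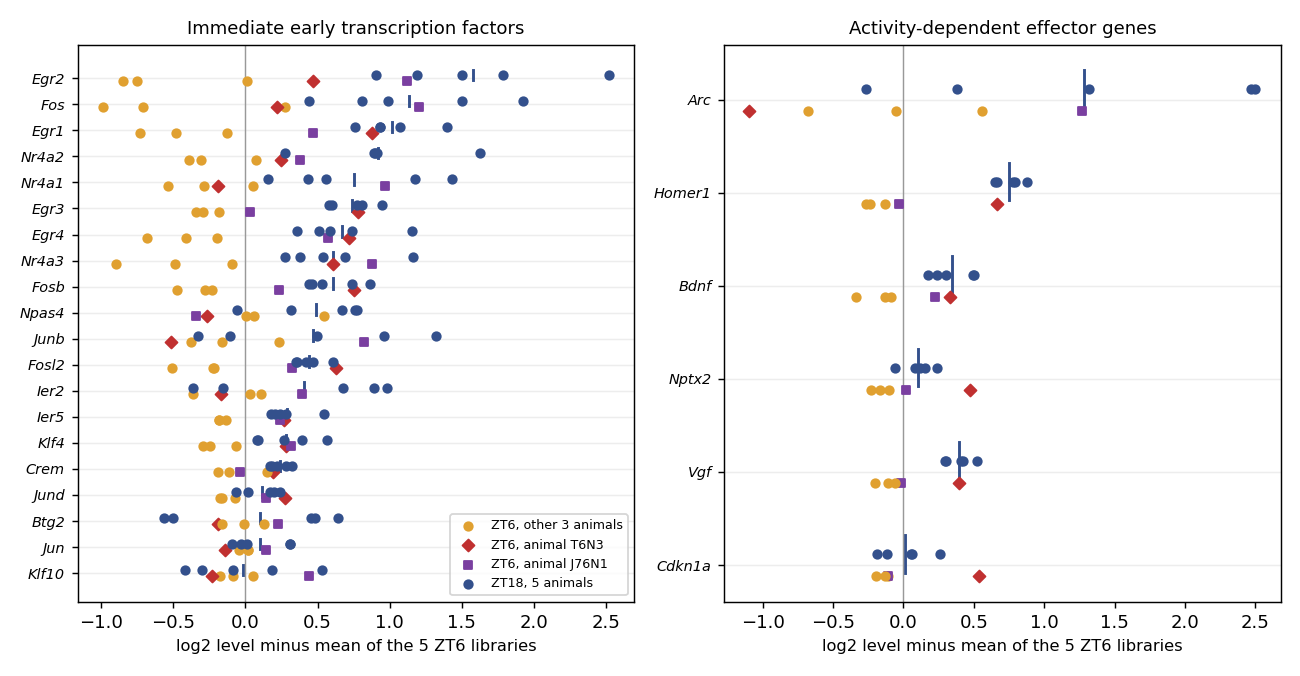
Each point is 1 library, as its log2 level minus the ZT6 mean, for 20 immediate early transcription factor genes (left) and 6 effector genes (right); vertical bars mark the ZT18 mean. T6N3 (red) lies among the ZT18 libraries for Egr3, Fosb, Homer1 and Vgf, while J76N1 (purple) does so for Fos, Nr4a1 and Arc.

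Genes that damp MAPK signalling, the kinase cascade upstream of many immediate early genes, were higher in 7 of 15 cases and lower in none (median 0.23). Over all genes 15.4% were higher and 14.3% lower. Dusp4, a MAPK phosphatase gene, stood at 3.57, 3.35, 3.02, 3.23 and 3.31 at ZT18 and 2.32, 2.91, 1.91, 2.75 and 2.15 at ZT6 (difference 0.89, SE 0.16, adjusted p = 3.70e-05), without overlap. Spry4 (0.59), Spred3 (0.55), Spry2 (0.39), Spred1 (0.37), Spred2 (0.35) and Dusp14 (0.23) were higher too. Dusp1 (0.17, SE 0.35), Dusp5 (0.22, SE 0.20) and Dusp6 (0.46, SE 0.20) did not pass. Dusp6 passed in the blocked fit of 6 animals (adjusted p = 0.0131) and Dusp14 (adjusted p = 0.13) did not. Leaving out 1 animal ended the call of Dusp14 without T18N3 or J76N2 (adjusted p = 0.0535 to 0.0575).

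Chaperones of the ER were the list with the highest share of rises among the 44 lists described. Of 20 genes 14 were higher at ZT18 and 1 lower, against 15.4% and 14.3% of all genes, and the median was 0.30. The libraries did not overlap in 14 of the 20, against 16.8% of all genes. RefSeq promoters were at hand for 17 of the 20, and 7 of these 17 held the ER stress element (CCAAT, 9 bases of any kind, then CCACG, on either strand within 250 bases before a transcript start), the known site of the factors ATF6 and NF-Y, against 15 of 10251 promoters (0.146%). Of those 15 genes 9 were higher at ZT18 and 0 lower, against 15.4% and 14.3% of all genes. Apart from Zfp57 and Adcy3, the 9 belong to the ER lists, so their rises are counted there as well. Outside those lists Alg12, Pan2, Hnrnpa3, Xlr3b and Acacb hold the element and were not called. The promoters of the main chaperone Hspa5, the disulfide isomerase Pdia6 and the secreted factor Creld2 are shown with the element in capitals (RefSeq, GRCm38.p6, 5′ to 3′ on the gene's strand):
Hspa5, chr2:34771840-34772089, plus strand: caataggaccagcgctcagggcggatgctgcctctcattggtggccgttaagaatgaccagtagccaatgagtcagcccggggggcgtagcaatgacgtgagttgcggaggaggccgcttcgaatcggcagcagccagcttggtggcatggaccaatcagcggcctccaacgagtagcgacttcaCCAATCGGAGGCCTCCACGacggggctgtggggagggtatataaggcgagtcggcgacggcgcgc
Pdia6, chr12:17266339-17266588, plus strand: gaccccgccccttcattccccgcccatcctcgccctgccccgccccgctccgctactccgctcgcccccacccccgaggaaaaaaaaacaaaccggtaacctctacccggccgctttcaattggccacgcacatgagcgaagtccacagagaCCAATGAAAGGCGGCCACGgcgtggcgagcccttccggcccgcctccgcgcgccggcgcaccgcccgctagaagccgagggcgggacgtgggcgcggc
Creld2, chr15:88819396-88819645, plus strand: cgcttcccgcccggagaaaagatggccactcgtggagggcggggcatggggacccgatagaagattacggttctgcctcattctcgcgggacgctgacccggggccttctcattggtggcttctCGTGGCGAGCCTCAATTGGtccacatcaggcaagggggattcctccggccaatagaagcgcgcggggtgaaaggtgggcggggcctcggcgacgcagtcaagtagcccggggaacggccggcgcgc
In Hspa5 the element began 65 bases before the transcript start, in Pdia6 98 and in Creld2 126, where it was read on the opposite strand. The 2 other promoters with the element outside the ER lists and a called rise were those of Zfp57 (0.52) and Adcy3 (0.30), named after their values were seen.

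Hspa5 (protein name BiP, the chief chaperone of the ER) stood at 7.65, 7.84, 7.65, 7.94 and 7.85 at ZT18 and at 6.91, 7.23, 6.82, 6.77 and 6.93 at ZT6. Night and day were 0.42 log2 units apart at their nearest libraries, and the difference was 0.85 (SE 0.10, 1.81-fold, adjusted p = 2.16e-08). Sdf2l1, which joins BiP complexes, stood at 4.30, 4.56, 4.19, 4.58 and 4.49 against 3.00, 3.62, 3.16, 3.20 and 3.06 (difference 1.22, SE 0.13, adjusted p = 5.95e-10). Of the disulfide isomerases Pdia4 was higher by 0.75, Pdia6 by 0.58 and Pdia3 by 0.37, while P4hb was not called (0.06, SE 0.03). The lectin chaperone gene Calr was higher by 0.49 (adjusted p = 6.27e-08), whereas Canx, its membrane-bound relative, was not called (0.07, SE 0.05) although its promoter holds the element. Manf (0.59), Creld2 (0.49) and Hyou1 (0.44) were higher, and so by less were Hsp90b1 (0.31), Dnajc3 (0.30) and Dnajb11 (0.28). Dnajc10, a reductase of the ER, was lower (-0.18, adjusted p = 0.00558).

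Of 16 regulators of the unfolded protein response 7 were higher and 1 lower (median 0.09), or 2 lower without T18N4, T18N8 or T6N3. Over all genes 15.4% were higher and 14.3% lower. Xbp1, the factor gene of the IRE1 arm, stood at 6.41, 6.43, 6.25, 6.42 and 6.38 at ZT18 and 5.92, 6.17, 5.85, 5.98 and 5.80 at ZT6 (difference 0.43, SE 0.06, adjusted p = 2.86e-07). Atf6b (0.26), Syvn1 and Sel1l (both of the ER-associated degradation complex, 0.26 and 0.18), Herpud1 (0.20), Ern1 (0.19) and Derl1 (0.10) were higher. Of the PERK arm its kinase gene Eif2ak3 was lower (-0.16, adjusted p = 0.0135), and Atf4 (0.09, SE 0.04), Ddit3 (0.08, SE 0.05), Chac1 (0.03, SE 0.09) and Ppp1r15a (0.04, SE 0.06) were not called. In the blocked fit 4 of the 16 were higher and 0 lower, and Sel1l, Ern1, Derl1 and Eif2ak3 (adjusted p = 0.0559, 0.0653, 0.363 and 0.0639) did not pass. Calls were lost with 1 animal left out for Herpud1 without T18N3 (adjusted p = 0.0748), Derl1 without T18N2, T18N3, T18N7, T18N8, T6N2, T6N4 or J76N1 (adjusted p = 0.0537 to 0.122).

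Heat shock genes of the cytosol were higher in 17 of 28 cases and lower in none (median 0.25), or in 1 without T18N7 or T6N2. Over all genes 15.4% were higher and 14.3% lower. In 16 of the 28 the libraries did not overlap, against 16.8% of all genes. Besides Hspb1 and Hspa1b, the crystallin gene Cryab stood at 6.81, 6.80, 6.67, 6.92 and 6.85 at ZT18 and 6.20, 6.32, 6.01, 6.14 and 6.21 at ZT6 (difference 0.63, SE 0.08, adjusted p = 1.00e-07). Hspa1a was higher by 0.68, the cochaperone genes Dnajb5 by 0.46, Chordc1 by 0.41 and Dnajb1 by 0.35, the nucleotide exchange factor gene Hsph1 by 0.34 and the master regulator gene Hsf1 by 0.37. Hspa8, the constitutive Hsp70 gene, was higher by 0.29 (adjusted p = 3.43e-05). The Hsp90 genes themselves were not called (Hsp90aa1 -0.08, SE 0.08; Hsp90ab1 0.07, SE 0.05), while their cochaperone genes Ahsa1 (0.25), Stip1 (0.29) and Fkbp4 (0.27) were higher. Cold-inducible RNA-binding protein genes went the other way. Cirbp stood at 6.32, 6.39, 6.20, 6.32 and 6.33 at ZT18 and 7.10, 6.95, 7.08, 6.96 and 7.12 at ZT6 (difference -0.73, SE 0.07, adjusted p = 4.29e-11), and Rbm3 was lower by a log2 difference of -0.24 (adjusted p = 0.0119), both without overlap. Body and brain temperature are no part of the files.

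Sterol synthesis had the highest share of falls among the lists of more than 2 genes. Of 20 enzyme genes from acetyl-CoA to cholesterol 15 were lower at ZT18 and 1 higher (median -0.24), against 14.3% and 15.4% of all genes. The libraries did not overlap in 11 of the 20, against 16.8% of all genes. Hmgcs1, the enzyme gene at the start of the pathway, stood at 7.16, 6.98, 7.04, 7.05 and 7.17 at ZT18 and 7.53, 7.55, 7.72, 7.56 and 7.65 at ZT6. The lowest day value was 0.36 log2 units above the highest night value, and the difference was -0.52 (SE 0.06, adjusted p = 2.00e-08). Msmo1 (-0.49), Idi1 (-0.41), Mvd (-0.41) and Sqle (-0.32, adjusted p = 4.52e-06) were lower. Ebp, a sterol isomerase gene, was the one rise (0.32), and Pmvk, Fdps, Tm7sf2 and Hsd17b7 were not called. Insig1 stood at 5.65, 5.25, 5.62, 5.31 and 5.55 against 6.09, 6.12, 6.20, 6.37 and 6.18 (difference -0.71, SE 0.08, adjusted p = 6.78e-09). The cholesterol transporter gene Stard4 (-0.38) was lower too, whereas the factor genes Srebf1 (0.14, SE 0.06) and Srebf2 (0.05, SE 0.05) were not called. With the block, fitted on 6 animals, 6 of the 20 enzyme genes were lower, against 4 in the same 6 libraries without the block, and Mvd (adjusted p = 0.101) did not pass.

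Among synaptic genes, scaffolds of the excitatory postsynapse were higher in 11 of 24 cases and lower in 2 (median 0.10). Shank2, a master scaffold gene, stood at 6.68, 6.78, 6.55, 6.74 and 6.66 at ZT18 and 6.18, 6.43, 6.06, 6.18 and 6.14 at ZT6 (difference 0.48, SE 0.06, adjusted p = 8.52e-08). Dlgap3 (0.34), Shank1 (0.30), Shank3 (0.29) and Lrrtm1 (0.27) were higher, and Nlgn1 (-0.24), an adhesion protein gene, and Dlgap1 (-0.09) lower. Receptor genes for glutamate counted 3 higher and 5 lower of 22, with Grm3 (-0.27) lowest, and those for GABA 2 higher and 4 lower of 14, with Gabra2 (0.25) and Gabra4 (-0.25). Potassium channel genes counted 7 and 5 of 29. These shares stand beside 15.4% higher and 14.3% lower of all genes. Glutamate receptor genes counted 1 higher and 3 lower without T6N4, and 3 lower without T18N3 or T18N7. Those for GABA counted 1 higher without T18N3 and 2 lower without T6N2, and the scaffolds 1 lower without T18N2 or T6N4. In the blocked fit of 6 animals Dlgap1, Gabra2 and Grm3 (adjusted p = 0.0843, 0.0849 and 0.133) did not pass, and leaving out 1 animal ended the calls of Dlgap1 without T18N2 or T6N4 (adjusted p = 0.0557 to 0.0611), Grm3 without T18N3, T18N7, T6N4 or J76N1 (adjusted p = 0.0558 to 0.117).

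The list of receptors for transmitters of arousal covers noradrenaline, serotonin, histamine, acetylcholine, dopamine and orexin. Of its genes 8 of 25 were higher and none lower (median 0.12), or 1 lower without T18N4, against 15.4% and 14.3% of all genes. Htr1b, a serotonin receptor gene, stood at 2.66, 2.94, 2.64, 2.72 and 2.65 at ZT18 and 2.00, 1.98, 1.94, 2.18 and 1.86 at ZT6, with no overlap (difference 0.73, SE 0.10, adjusted p = 1.78e-07). Adra1d, an adrenergic receptor gene, was higher by 0.52, with the day libraries between 4.48 and 5.10, where the highest was T6N3. The histamine receptor genes Hrh1 (0.44), Hrh2 (0.23) and Hrh3 (0.21), Adra2c (0.40), the muscarinic receptor gene Chrm1 (0.27) and the orexin receptor gene Hcrtr2 (0.32, adjusted p = 0.0487) were higher as well. Several of these were measured at low levels: only 14 of the 25 had a mean above the 25th percentile of all genes (3.09). ZT6 libraries lay at 0.22 to 0.91 for Hcrtr2, 2.1 to 2.37 for Hrh2 and 2.39 to 2.89 for Adra2c. Of 11 genes of adenosine signalling 2 were higher, against 15.4% of all genes, the receptor genes Adora2b (0.43) and Adora1 (0.16), and none was lower, or 1 without T18N4 or J76N2. Adora2b was low as well, at 1.09 to 1.64 in the ZT6 libraries. In the blocked fit 5 of the 25 arousal receptor genes were higher, and Adra2c, Hrh2 and Hcrtr2 (adjusted p = 0.0973, 0.0795 and 0.284) did not pass. Summed striatal marker levels, given below, were also higher at ZT18, and their part in these receptor genes was not tested. Calls were lost with 1 animal left out for Hcrtr2 without T18N2, T18N3, T18N7, T18N8, T6N4 or J76N1 (adjusted p = 0.0524 to 0.245), Hrh3 without T18N2, T18N3, T6N2, T6N3 or J76N2 (adjusted p = 0.0507 to 0.103).

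None of 49 cytosolic ribosomal protein genes was called in either direction (median -0.01), although 3 did not overlap. Calls numbered 1 higher and 3 lower of 44 for oxidative phosphorylation, 3 and 3 of 31 for the proteasome and 6 and 7 of 40 for the mitochondrial ribosome, beside 29.7% of all genes called. The cytosolic ribosome had 2 lower without T6N2, the proteasome 1 higher without T18N3 and 1 lower without J76N2, and the mitochondrial ribosome 3 higher without T18N3 or T6N2 and 4 lower without T6N4, J76N1 or J76N2.

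Marker genes of cell types were used to see whether the composition of the samples moved with the groups. In bulk tissue, fewer cells of a type and less RNA per cell cannot be told apart. The counts below stand beside 15.4% of all genes higher and 14.3% lower, and several lie near these shares. Astrocyte markers were higher in 2 of 13 cases, with summed levels of 3720 to 3860 at ZT18 and 3670 to 3900 at ZT6 (linear units, offset removed), excitatory neuron markers in 3 of 12 with 1 lower (2800 to 3130 against 2710 to 2890), and inhibitory neuron markers in 1 of 12 (1420 to 1560 against 1450 to 1600). Of 12 oligodendrocyte markers 10 had a negative difference (median -0.13), and 4 were called lower and none higher. Those called were Opalin, Mog (-0.43), Aspa (-0.38) and Cnp (-0.29), while the summed level of the 12 overlapped between the groups, 2090 to 2580 against 2170 to 2830. The number called lower was 6 without T18N2 or T6N3 and 5 without T18N7, T18N8 or J76N1. Without T18N3 or T6N2, 1 was called higher. In the blocked fit of 6 animals 6 were lower, against 4 in the same animals without the block. Of the precursors' markers, Gpr17, of precursors about to differentiate, stood at 4.41, 4.35, 4.18, 4.36 and 4.37 at ZT18 and 3.81, 3.79, 3.69, 3.76 and 3.67 at ZT6 (difference 0.59, SE 0.08, adjusted p = 1.78e-07), Olig2 was higher by 0.41 and Cspg4 by 0.19, and Lhfpl3 was lower (-0.25), in 10 markers. Microglia gave 1 higher and 3 lower of 13, endothelium 2 and 2 of 12 and mural cells 1 and 0 of 10. The mural call was Cspg4, which is also counted among the precursors' markers, and 8 of the 10 mural differences were negative (median -0.1). Of markers of tissue next to the cortex, 0 of 9 were called for meninges (91.7 to 104 against 89.4 to 113), 0 of 3 measured for choroid plexus (155 to 199 against 157 to 176), 0 of 7 for blood and 1 of 8 for thalamus and hippocampus. Striatal markers were higher in 2 of 9 cases, among them Pde10a (0.49), and their summed level did not overlap, 223 to 244 at ZT18 against 217 to 220 at ZT6. The markers did not share a direction: 5 of the 9 differences were positive and 4 negative (median 0.01), from Drd1 (-0.14, not called) to Pde10a. Leaving out T6N2 gave 0 microglial markers lower, and leaving out T18N3, T18N7, T18N8 or J76N2 gave 1. Excitatory neuron markers numbered 1 higher without T18N3, T6N4, J76N1 or J76N2. Astrocyte markers numbered 1 higher without T18N3, T18N7, T6N2, T6N4 or J76N1, and endothelial markers 1 lower without T18N3, T18N7, T6N2 or T6N4. Of mural markers 0 were higher without T18N2, T18N3, T18N7, T18N8, T6N4 or J76N2, and of striatal markers 1 without T18N3, T18N7, T18N8, T6N2, T6N3 or J76N2. The part of the summed striatal level and of the oligodendrocyte marker differences in the other results was not tested. Of the markers named, Cspg4 and Pde10a (adjusted p = 0.148 and 0.0517) did not pass in the blocked fit of 6 animals, and leaving out 1 animal ended that of Cspg4 without T18N2, T18N3, T18N7, T18N8, T6N4 or J76N2 (adjusted p = 0.0539 to 0.137).

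The ZT18 against ZT6 difference was set beside ZT0 against ZT12, a comparison of other animals near the end of the night with others at the end of the day. It called 1990 genes higher (14.4%) and 1605 lower (11.6%). Of the 2132 genes higher at ZT18, 855 (40.1%) were higher at ZT0 than at ZT12 and 79 (3.71%) lower, and these 855 made 43.0% of the genes higher at ZT0. Of the 1978 genes lower at ZT18, 690 (34.9%) were lower at ZT0 and 71 (3.59%) higher. Each gene was also scaled by itself from 0 at its ZT6 mean to 1 at its ZT18 mean. There the ZT0 mean lay at a median of 0.64 for genes higher at ZT18 and 0.67 for genes lower. The ZT3 mean lay at 0.36 and 0.41, and the ZT12 mean at 0.17 and 0.24. These medians over genes are another measure than the library positions given above, and the 2 cannot be set side by side. Of the 17 heat shock genes higher at ZT18, 15 were also higher at ZT0 and 0 lower, and of the 14 ER chaperone genes 13 and 0. Of the 15 sterol enzyme genes lower at ZT18, 2 were lower at ZT0 and 1 higher. Glucocorticoid-responsive genes, 7 of 20 higher and 0 lower at ZT18, were lower at ZT0 than at ZT12 in 9 cases and higher in 2.

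Wakefulness enforced in the morning was compared through T27 against ZT3, which has no library in common with ZT18 against ZT6 and keeps clock time equal. It called 1136 genes higher (8.21%) and 1020 lower (7.37%), 15.6% in all. Of the 2132 genes higher in the night, 658 (30.9%) were higher at T27 and 10 lower, and these made 57.9% of the genes higher at T27. Of the 1978 genes lower in the night, 595 (30.1%) were lower at T27 and 13 higher, which made 58.3% of the genes lower at T27. In this comparison all 3 choroid plexus markers and 4 of 9 meningeal markers were lower at T27, which was not the case between ZT18 and ZT6, and their part was not tested.

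The 2 differences were tested against each other in the same model, and 307 genes (2.22%) differed, 146 (1.05%) with the higher value in the night comparison and 161 (1.16%) with the higher value under deprivation. Leaving out ZT3 animal 4 gave 131 genes, T27 animal 3 gave 145 and ZT3 animal 2 gave 198. The 6 genes largest in favour of deprivation were Cdkn1a, Tiparp, Gadd45b, Rnd3, Pxdn and Gadd45g, 3 of them growth arrest genes. Cdkn1a was higher by 1.49 at T27 and by 0.01 (not called) in the night comparison (difference of differences -1.47, SE 0.23, adjusted p = 2.84e-04). Pxdn was higher by 0.48 at T27 and lower by a log2 difference of -0.27 at ZT18 (adjusted p = 5.65e-04). Gadd45b was at 0.81 against -0.05, Rnd3 at 0.79 against -0.04, Tiparp at 1.16 against 0.21 (adjusted p = 0.0468) and Gadd45g at 0.56 against -0.18. The 6 largest in favour of the night were Cited4 (a transcription coactivator, 0.31 at night and -0.42 at T27, adjusted p = 0.00175), Plekho2 (0.48 and -0.25), Hspa1b (1.24 and 0.58), Ddit4l (0.31 and -0.32), the growth factor receptor gene Fgfr3 (0.44 and -0.15) and the ETS factor gene Etv4 (0.68 and 0.13). For the night comparison Cited4 and Ddit4l (adjusted p = 0.125 and 0.1) did not pass in the blocked fit of 6 animals, while Tiparp did (adjusted p = 0.0224), and leaving out 1 animal ended the call of Ddit4l without T18N7 or J76N1 (adjusted p = 0.062 to 0.0636).

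The tested difference was called in 9 of 18 effector genes and 5 of 20 immediate early factor genes, against 2.22% of all genes. Bdnf was higher by 0.34 at night and 1.03 at T27 (adjusted p of the difference = 0.0106), Fosb by 0.61 and 1.97 (adjusted p = 0.00451), and Ptgs2 by 1.21 at T27, with 0.08 (SE 0.14) at night. Jun was lower at T27 (-0.45) with 0.10 (SE 0.09) at night. The tested difference was also called in 9 of 20 sterol enzyme genes, all with a negative difference at night. Over all 20, 2 were called higher and 1 lower at T27. Of the 15 called lower at night, 1 was higher and 1 lower at T27. Hmgcs1 was at -0.52 and 0.07 (adjusted p = 8.75e-04) and Msmo1 at -0.49 and 0.16 (adjusted p = 0.00102). In ER chaperone genes it was called in none of 20 and in heat shock genes in 2 of 28, Hspa1a and Hspa1b. Of 7 clock output genes Tef (0.24 and -0.14) and Hlf (0.35 and -0.13) were called. It was also called in 5 of 29 genes of glycolysis and glycogen, 3 of 20 glucocorticoid-responsive genes, 2 of 12 excitatory neuron markers and 2 of 3 choroid plexus markers.

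**Figure D5:**
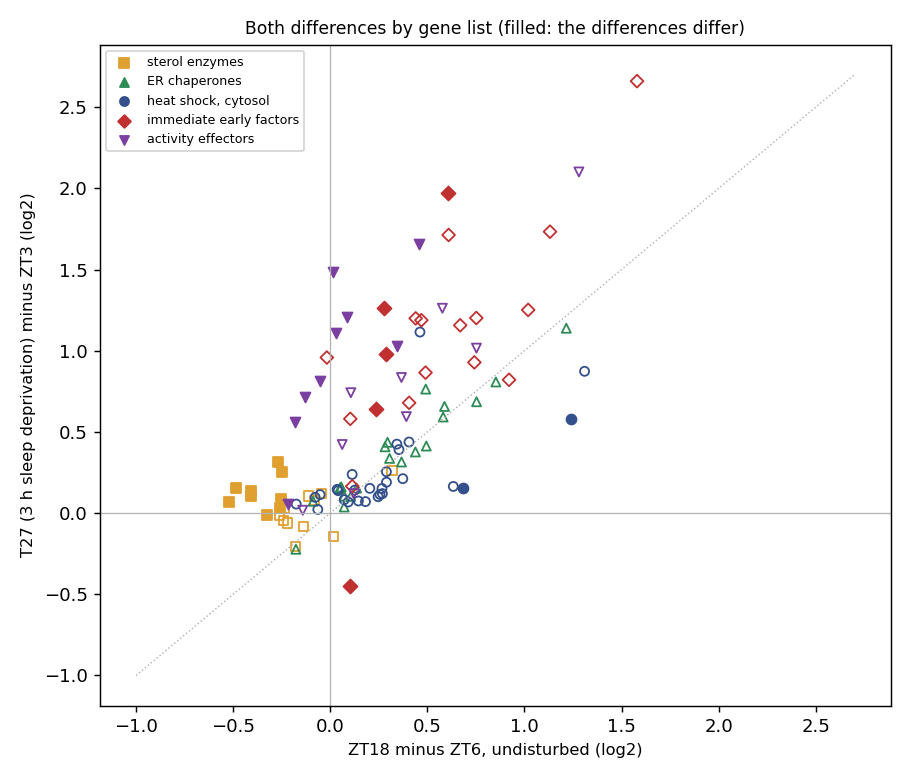
Each point is 1 gene of 5 lists, with the ZT18 minus ZT6 difference in log2 units (horizontal) and the T27 minus ZT3 difference (vertical); filled points passed the test of the difference between both, and the dotted line marks equality. The 9 filled sterol enzyme genes lie left of 0 on the night axis, no ER chaperone gene is filled, and 9 effector genes are filled.

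Open chromatin was compared in the 4 ZT18 and 5 ZT6 animals with ATAC libraries, where 2.21 to 6.91 M reads lay in peaks. Of 130727 peaks none (0.0%) was called in either direction by limma, and none by edgeR on the reads recovered from the deposited values. At an unadjusted p below 0.05 limma had 10173 peaks (7.78%) and edgeR 7732, and the smallest adjusted p by limma was 0.0618. The median SE of a peak's log2 difference was 0.23, against 0.058 for a gene's RNA difference. Leaving out 1 library gave 24 peaks without J76N1, 17 without T6N2, 14 without T18N4 and 13 without T18N8. Within 1000 bases of the starts of 1535 genes higher at ZT18 lay 2021 peaks with a median log2 difference of -0.074, and within the same distance of 1403 genes lower lay 1699 peaks with a median of -0.05, beside -0.045 for 7861 peaks of genes not called. The peak at Hspa5 had a log2 difference of -0.18 (95% interval -0.41 to 0.04), and that at Hspa1b a log2 difference of 0.22 (95% interval -0.17 to 0.61). Of 214 peaks at the starts of named genes 8 (3.74%) did not overlap between the groups, 7 of them lower at ZT18, against 2.15% of all peaks. All peaks are an unlike baseline, since peaks at gene starts had a median SE of 0.151 and a positive difference in 35.8%. Among the 8 were peaks at Calr (-0.17) and Cited4 (-0.80), whose RNA was higher at ZT18, and at Nr1d2 (-0.24). The peak at Lhfpl3 (0.17), whose RNA was lower, was the 1 higher. The 2 peaks at Nr1d1 were lower at ZT18 with no overlap between groups, at -0.41 (95% interval -0.68 to -0.14) and -0.54 (95% interval -0.84 to -0.25), without passing (adjusted p = 0.346 and 0.215). A peak at Hlf (chr11:90389499-90390068 on mm10) was lower by a log2 difference of -0.63 (95% interval -1.04 to -0.21) without overlap, while its RNA was higher, and one at Dbp (chr7:45704007-45704508) by -0.63 (95% interval -0.94 to -0.32) (adjusted p = 0.147). Cirbp had a log2 difference of 0.08 (95% interval -0.20 to 0.35) and Cry1 a log2 difference of -0.13 (95% interval -0.37 to 0.12).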

How the data were processed

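RNA-seq of mouse cortex gave the authors' deposited log2 table of 13842 genes, a depth-normalized level with an offset of 0.5, made by kallisto 0.43.0 and sleuth 0.29.0 among other tools per the submitters' processing notes, from a median of 55 M reads per the labels' protocols. Batch was already adjusted: a gene at its floor lies at exactly -1 in batch 1 and not in batch 2. ATAC signal, deposited for 130727 peaks on mm10, is reads per peak over 1 factor per library (MACS2 2.1.1 and HTSeq 0.6.1, per the submitters' processing notes). Whole reads could be recovered from 100% of values (tolerance 0.02), 2.21 to 6.91 M per library used. Which step each tool did is not stated.

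RNA was fitted with limma 3.58.1 (R 4.3.3), 1 mean per group over 62 animals plus batch, variance moderated with an intensity trend, Benjamini-Hochberg adjusted over all genes and called below 0.05. ATAC was fitted likewise on log2(signal + 0.5) over 59 animals, with edgeR 4.0.16 on the recovered reads as an alternative chosen after seeing the data. The repeat ATAC library of 1 animal was dropped, and a merged RNA column of 1 ZT0 animal was counted as batch 1. Both fits were tested on simulated data.

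Animals numbered 2, 3 and 4 in batch 1 were checked for pairing: deviations of same-numbered ZT18 and ZT6 animals correlated by 0.107, 0.208 and 0.216, and of others by -0.219 to 0.031. They were treated as pairs only in the blocked fit of 6 animals, from these small correlations and not from the labels. The fit of all animals, which gave the calls reported, had terms for group and batch and none for pairs. The labels name an animal for each library and give no litter or cage, so p-values measure the spread between these samples. Named genes are the 12 largest rises and falls among called, non-overlapping genes with a mean above the 25th percentile, the 6 largest differences each way from T27 against ZT3, and examples from 44 gene lists, some members of which are not reported here. The comparison and the lists were chosen with earlier results of these data known. Promoters came from RefSeq (GRCm38.p6), found for 10251 genes (74.1%). Alternatives covered batch, samples fitted, scaling, offset, filter and single animals.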

Additional observations from a re-analysis of the deposited data

Results flagged for a closer look

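In 18 of 374 groups of 5 libraries (each named gene at ZT18 and at ZT6), 1 library lay farther from the other 4 than Dixon's 95% critical value of 0.71 allows. Chance alone gives about 1 in 20 such groups. Levels are log2 values, with the range of the other 4 libraries. At ZT18, T18N2 stood apart for Cited4 (3.44, others 3.71 to 3.77), Gabra4 (5.95, others 6.03 to 6.05), Hlf (7.23, others 7.38 to 7.43), Ier5 (5.93, others 5.57 to 5.67), Pde10a (4.53, others 4.94 to 5.05) and Pxdn (5.39, others 5.1 to 5.17). At ZT6, T6N3 stood apart for Cdkn1a (4.51, others 3.78 to 3.86), Ciart (4.69, others 5.25 to 5.41), Dusp14 (6.86, others 6.34 to 6.45), Homer1 (7.56, others 6.63 to 6.86) and Ptgs2 (3.1, others 2.62 to 2.69). At ZT18, T18N4 stood apart for Fabp7 (4.32, others 4.59 to 4.69), Gpr17 (4.18, others 4.35 to 4.41), Nlgn1 (5.37, others 5.16 to 5.21), Pla2g4e (2.85, others 2.62 to 2.68) and Xbp1 (6.25, others 6.38 to 6.43). At ZT18, T18N3 stood apart for Htr1b (2.94, others 2.64 to 2.72) and Srsf6 (6.48, others 6.59 to 6.63).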

How the results depend on the processing

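The count of 4110 genes stayed between 3168 and 4252 with no batch term, with only the 10 libraries or only undisturbed mice fitted, without the intensity trend, with medians or quantiles equalised, with an offset of 1, and with genes below the 25th percentile left out (3347). It was 2547 in batch 1 and 1093 in batch 2 alone, fits with fewer animals. With the replicate block on 6 batch 1 animals it was 2281, and 1044 on the same 6 without the block. Leaving out 1 animal gave 3220 to 4349. In the blocked fit of 6 animals the calls stated beside the genes differed from the fit of all animals, and no other call among the genes named did. Genes differing between the night and deprivation comparisons numbered 131 to 327 with 1 animal left out, the lowest 3 (131, 145 and 198) coming without ZT3 animals 2 or 4 or T27 animal 3. Between ZT0 and ZT12 the range was 2998 to 3566, and for T27 against ZT3 1460 to 1845. ATAC peaks called were 0 in the fit reported, 1 with medians equalised, and 0 to 24 with 1 library left out. Of the named genes that were called, 1 changed sign, Per1, at -0.09 in batch 2 alone, and the cause was not tested. The median SE of a peak was 0.23 log2 units, and depth was not separated from the spread between animals.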

Other observations

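Genes of RNA processing were called in both directions, with 11 of 38 higher and 8 lower at ZT18 (median -0.03), against 15.4% and 14.3% of all genes. The splicing factor gene Tra2a stood at 6.69, 6.58, 6.79, 6.64 and 6.67 at ZT18 and 6.25, 6.13, 6.32, 6.37 and 6.21 at ZT6 (difference 0.42, SE 0.05, limma adjusted p = 7.22e-08). Of the serine- and arginine-rich splicing factor genes Srsf10 (0.22), Srsf6 (0.17) and Srsf7 (0.16) were higher, but in the blocked fit of 6 animals Srsf10, Srsf6 and Srsf7 (adjusted p = 0.0722, 0.0623 and 0.2) did not pass, and leaving out 1 animal ended the call of Srsf7 without T18N7, T18N8, J76N1 or J76N2 (adjusted p = 0.0546 to 0.0866). Hnrnpu (-0.37, adjusted p = 1.42e-08) and Luc7l2 (-0.30), which encode RNA-binding proteins of the nucleus, were lower.

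Translation initiation genes counted 3 higher and 7 lower of 38. This count and those of the lists that follow stand beside 15.4% of all genes higher and 14.3% lower. Eif4ebp2, a repressor of cap-dependent initiation, stood at 4.73, 4.89, 4.73, 4.71 and 4.66 at ZT18 and 4.44, 4.37, 4.26, 4.42 and 4.25 at ZT6 (difference 0.40, SE 0.05, limma adjusted p = 2.47e-07), and Eif2b3 (-0.30) and Eif5 (-0.23) were lower. Among 20 glucocorticoid-responsive genes the 7 that were higher included Plin4 (0.58), Mfsd2a (0.50), Nfkbia (0.30) and Tsc22d3 (0.23). Of 18 neuropeptide genes the processing enzyme genes Pcsk1 (0.45) and Pcsk2 (-0.28) were the 2 called, in opposite directions. Of 29 genes of glycolysis and glycogen 4 were higher and 1, the lactate carrier gene Slc16a1 (-0.32), was lower, or 2 higher without T18N3 or T6N4 and 2 lower without T18N3 or J76N1.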
